A study of Homo sapiens with 12 samples.

Results

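In MOLM-13 cells, 87 genes moved in opposite directions with decitabine (DAC) and with all-trans retinoic acid (ATRA). These genes were lowered by DAC and raised by ATRA, and the data show on which side each of them settled when both drugs were given. The genes were chosen from the deposited matrix by measured values, with rows summed per gene symbol. A gene was taken when its mean over the 12 libraries was at least 50 normalised counts, its DAC mean was at least 1.5-fold below and its ATRA mean at least 1.5-fold above the untreated mean, and neither drug's libraries overlapped the untreated libraries. Of 46639 gene symbols, 7797 reached that mean and 90 met every criterion. A further 4 symbols were left out by name, 3 of which had met the criteria, leaving 87. Because the DAC and ATRA libraries chose the genes, their single-drug changes are descriptions only and carry no test. Among the 10641 protein-coding genes tested for the combination, every untreated library lay above every DAC library in 14.2% and below every ATRA library in 24.1%.

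MOLM-13 is a human acute myeloid leukemia cell line that carries an MLL-AF9 fusion and an internal tandem duplication of FLT3, and RNA was sequenced from 12 libraries of this 1 line. Cells were left untreated or received 100 nM DAC, 1 µM ATRA, or both (DAC+ATRA), with 3 libraries in each of the 4 groups. Fresh DAC was given on 3 consecutive days. The labels give all groups a medium with 20% fetal calf serum and 5 ng/ml human GM-CSF. The study's methods instead name a lower share of serum and no GM-CSF. The labels give 96 h for the untreated and 72 h for the treated libraries, whereas the study's design names 72 h for the harvest, and its methods describe ATRA as given with the last DAC dose, a shorter exposure than the labels give. If the labels hold, drug and time cannot be told apart in any comparison with untreated, including the rule and the interaction. No vehicle library was among the 12 libraries. The labels call the 3 libraries of a group technical triplicates, so p-values measure the spread within 1 experiment.

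DAC is incorporated into DNA during replication and traps DNA methyltransferases, so that methylation is lost as cells divide. ATRA binds retinoic acid receptors, which sit on DNA as heterodimers with retinoid X receptors and exchange corepressors for coactivators when ligand is bound. In myeloid leukemia cells ATRA is known for driving differentiation. Early response genes are a separate class: transcription factors such as EGR1 and JUNB and feedback regulators such as DUSP and SOCS proteins, which growth factor and cytokine signals switch on rapidly and whose mRNAs are short-lived.

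The libraries held 4.67 to 11.9 M recovered reads (M stands for mega), and the libraries with DAC (DAC 4.67 to 6.95 M, DAC+ATRA 5.61 to 7.16 M) were shallower than those without it (ATRA 8.36 to 10.69 M, untreated 8.95 to 11.94 M). Of 12 myeloid markers, 10 had a median above 10 normalised counts and 2, CSF2RA and CD68, were listed at 0. The summed level of the myeloid markers was 70297 to 78503 in untreated, 181842 to 222473 in DAC, 23187 to 28397 in ATRA and 68605 to 72869 in DAC+ATRA libraries. LYZ, with means of 41628, 153287, 6819 and 40819 in the same order, made up most of the differences of the single drugs from untreated, and MPO had means of 1513, 22033, 805 and 10424. By contrast, CD33, SPI1, CSF1R, ITGAM and MEIS1 had higher means with ATRA than untreated, and FLT3, HOXA9 and CEBPA had lower means with either drug. Summed erythroid markers stayed between 0 and 2.04 in every library, B and T cell markers reached at most 39.8 and 40.8, and epithelial markers lay between 32.6 and 72.5. The NK cell sum, nearly all NKG7 with KLRD1 listed at 0, was 672 to 737 in untreated, 705 to 1064 in DAC, 1014 to 1282 in ATRA and 398 to 521 in DAC+ATRA libraries. The fibroblast sum was COL1A1 alone, with COL1A2, COL3A1 and DCN listed at 0, and was 4.87 to 10.7, 17.8 to 23.9, 64.5 to 86.3 and 39.2 to 58.2 in the same order. The part of these marker sums in the results below was not tested. Values are read counts per transcript divided by 1 size factor per library, summed per gene. Reads shared by transcripts of a gene appear to have been left out, so levels are not compared between genes. In bulk RNA, fewer cells of a kind and less RNA per cell cannot be told apart.

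With both drugs the 87 genes spread over the whole scale between and beyond the single drugs. In 3 genes every DAC+ATRA library lay above every ATRA library (THBS1, HBEGF and OAS3), an order found in 21.5% of the 10641 tested genes. The DAC+ATRA libraries overlapped ATRA in 10 genes, lay between untreated and ATRA in 34, and overlapped untreated in 20. They lay between DAC and untreated in 6 genes, overlapped DAC in 11, and were below every DAC library in 3 (RASGEF1B, TSC22D3 and AC020916.1), an order found in 20.3% of the tested genes. On the log2 scale a gene kept a median of 26.7% of its ATRA rise, with quartiles of -18.5% and 71.9%, where 100% is the ATRA level and 0% the untreated level. The lowest value was -200.4% for TSC22D3 and the highest 152% for OAS3.

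**Figure D1:**
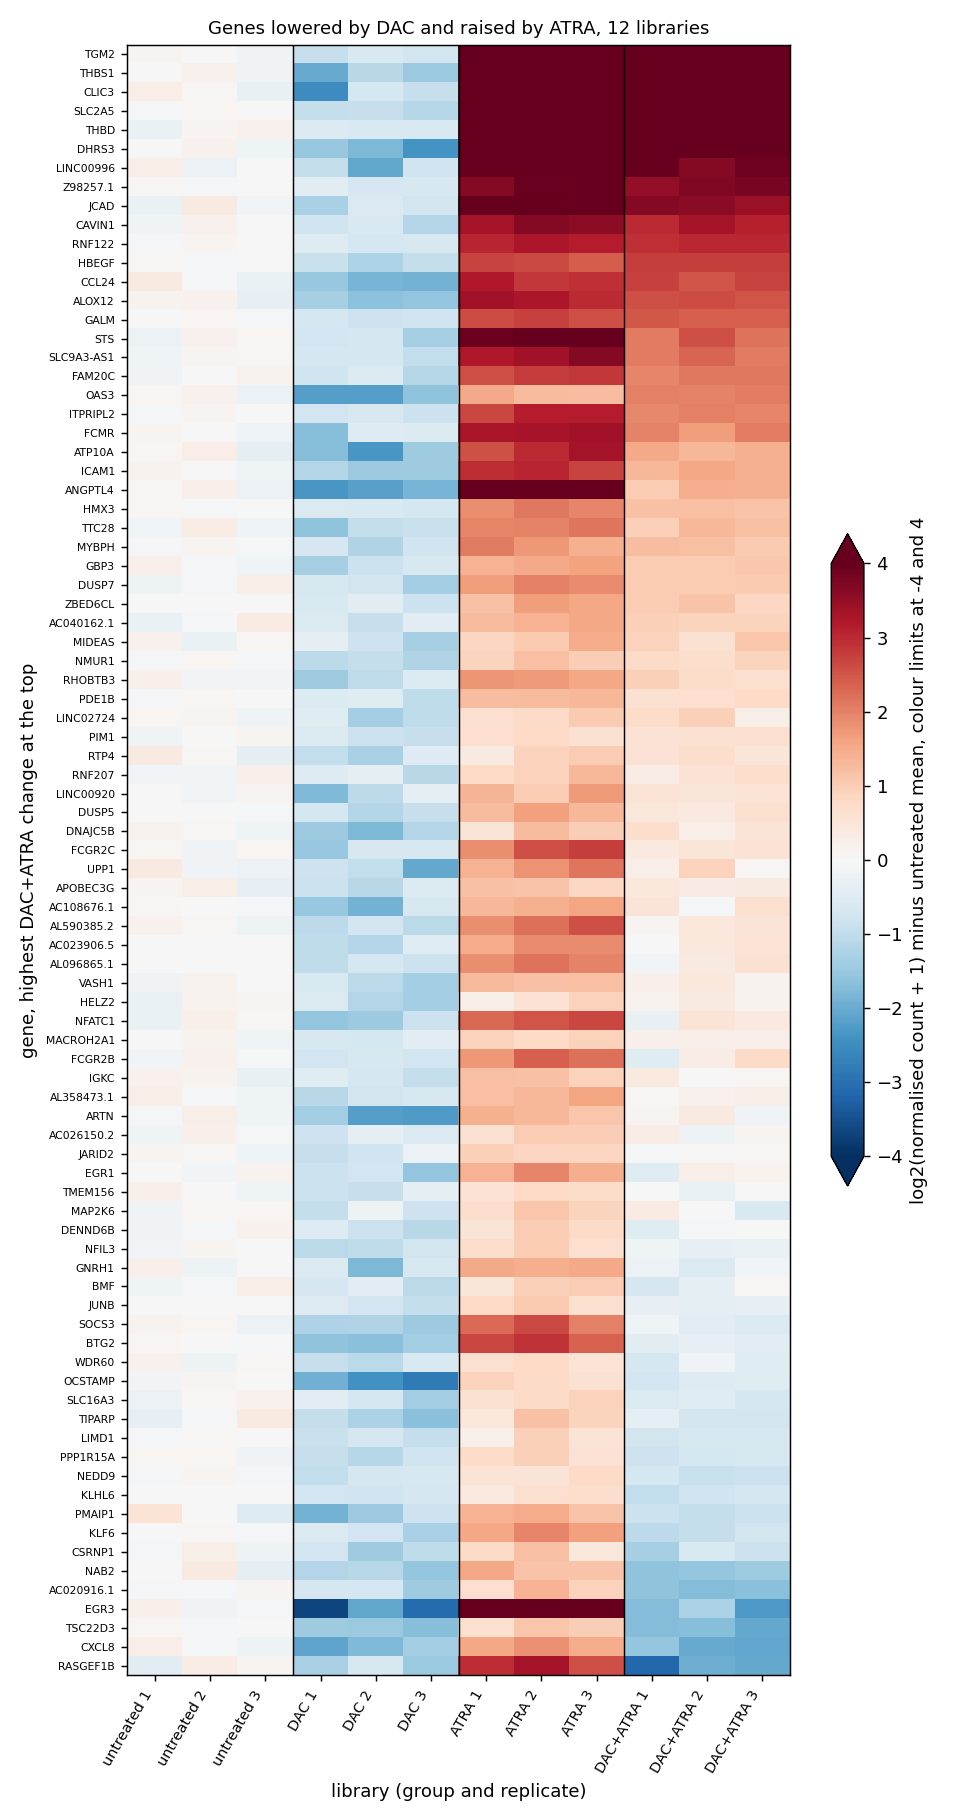
A total of 86 genes of the set (rows) in the 12 libraries (columns), coloured by log2(normalised count + 1) minus the mean of the untreated libraries, with colour limits at -4 and 4 and genes ordered by their DAC+ATRA change. DAC columns are blue and ATRA columns red in every row because the rule chose them so, while the 3 DAC+ATRA columns run from TGM2 at the top, where the change was 7.63, to RASGEF1B at the bottom, where it was -2.38.

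The same criteria found 1024 genes that ATRA raised without DAC lowering them, and these settled elsewhere. DAC+ATRA reached above every untreated library in 90.3% of them against 54.0% of the 87 genes, and fell below every ATRA library in 38.5% (394 genes) against 85.1% (74 genes). DAC+ATRA lay below every untreated library in 15 of the 1024 genes (1.46%) and in 20 of the 87 (23.0%). Among 10641 tested genes, DAC+ATRA lay above every untreated library in 28.1%, below every ATRA library in 18.4% and below every untreated library in 27.6%. The 23.0% of the 87 genes was thus not above the share of all genes. Both sets were chosen with the ATRA and untreated libraries and the 87 also with the DAC libraries, whereas the DAC+ATRA libraries entered only through the mean of all libraries. These shares are therefore given without a test.

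**Figure D2:**
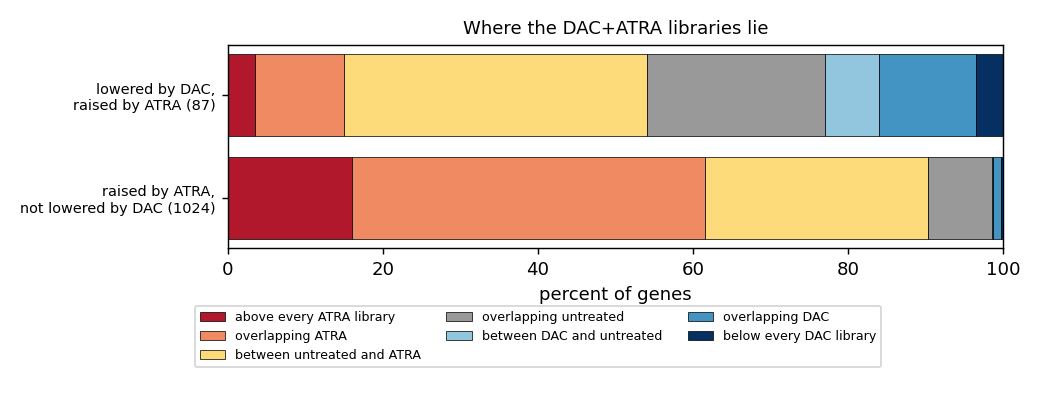
Percent of genes (horizontal axis) by where their 3 DAC+ATRA libraries lay against the other groups, for the 87 genes lowered by DAC and raised by ATRA and for 1024 genes raised by ATRA without being lowered by DAC. The bar of the 87 genes holds 23.0% that overlapped untreated and a further 23.0% below every untreated library, and the bar of the 1024 genes holds 8.20% and 1.46%. DAC+ATRA lay below every untreated library in 27.6% of the 10641 tested genes, which are not drawn.

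For 73 of the 87 genes, which are protein-coding and reached 10 normalised counts or more in 3 or more libraries, DAC+ATRA was tested with limma on log2(normalised count + 1), with calls made where the adjusted p was under 0.01. Against untreated, 33 were higher, 13 were lower and 27 were not called, with a median log2 change of 0.48. Among all 10641 genes tested, 14.5% were called higher and 14.4% lower in this comparison, beside 45.2% and 17.8% of the set, so the share called lower was near that background. All 3 DAC+ATRA libraries were above the untreated libraries in 41 of the 73 and below them in 19, against 28.1% and 27.6% of all genes. ATRA alone had raised all 73 by rule, and untreated libraries were part of that choice. In 904 tested genes that ATRA raised and DAC did not lower, 654 were called higher and 4 lower than untreated. In 316 tested genes that DAC lowered and ATRA did not raise, 1 was called higher and 227 lower.

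Against ATRA, 51 of the 73 were lower with DAC+ATRA and 1, THBS1, was higher, where 5.46% of all genes were called lower and 6.47% higher. All 3 DAC+ATRA libraries lay below all ATRA libraries in 62 of the 73, against 18.4% of all genes. The median log2 difference was -1.02, compared with -0.15 in the 904 tested genes that ATRA raised and DAC did not lower, of which 148 (16.4%) were called lower. It was -0.52 in the 316 tested genes that DAC lowered and ATRA did not raise, of which 125 (39.6%) were called lower. Against DAC, 53 of the 73 were higher and 0 lower, against 9.04% and 9.74% of all genes, with a median log2 difference of 1.52. These comparisons share the ATRA or DAC libraries that chose the genes.

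Across the 87 genes, DAC lowered levels by a median of 0.93 on the log2 scale without ATRA (log2 change -0.93, range -2.94 to -0.57), and DAC+ATRA lay a median of 1.02 below ATRA (log2 difference -1.02, range -6.16 to 1.02). Pearson's r between these 2 differences was 0.49 and Spearman's rho 0.29 over 87 genes that share the same 12 libraries and the same scaling. The ATRA rise without DAC and the ATRA rise with DAC had an r of 0.81 and a rho of 0.72. Both are descriptions across genes, which are not replicates.

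**Figure D3:**
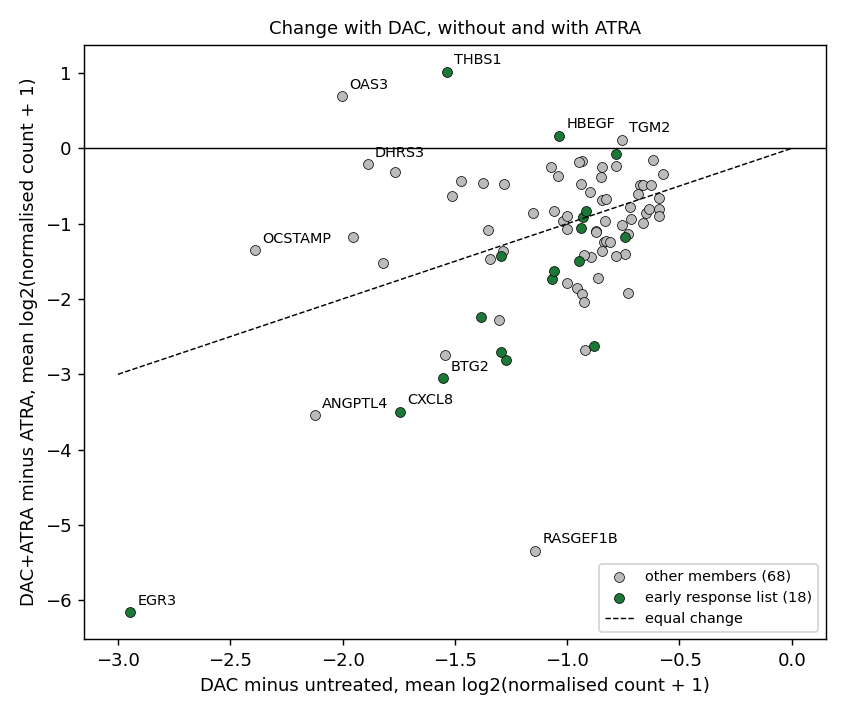
Each point is 1 of 86 genes of the set, with DAC minus untreated on the horizontal axis and DAC+ATRA minus ATRA on the vertical axis, both as differences of mean log2(normalised count + 1), and with 18 early response genes in green. EGR3 lies lowest, at -6.16 on the vertical axis, whereas THBS1 lies highest at 1.02, and points under the dashed line fell more with ATRA than without it.

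The list of transcription factors and cofactors held 6 of the 87 genes (EGR1, EGR3, KLF6, JUNB, NFIL3 and TSC22D3). Of these, 6 were lower in DAC+ATRA than in ATRA, 3 were lower than untreated and 0 were higher. In the whole list, 32 of 120 tested genes were lower than in ATRA and 27 lower than untreated, with a median difference from ATRA of -0.27. The 6 were chosen for high ATRA and low DAC libraries and the whole list was not, so the shares are not alike in selection. Of all 73 tested genes of the set, 69.9% were called lower than ATRA and 72.6% higher than DAC. Among all genes tested these shares were 5.46% and 9.04%. The same limit applies to the members of each list below.

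EGR3, a zinc finger factor induced by growth factor signals, read 127, 98.2 and 104 normalised counts in the untreated libraries and 7.63, 25.1 and 11.97 with DAC. ATRA raised EGR3 to 2609, 2656 and 1799, and with DAC+ATRA it read 32.2, 45.03 and 21.4. The DAC+ATRA libraries overlapped those of DAC, and each lay below every untreated library. The log2 change of EGR3 was -1.76 (95% interval -2.42 to -1.10, limma adjusted p = 0.000181) against untreated and -6.16 (95% interval -6.82 to -5.50, limma adjusted p = 7.45e-11) against ATRA. Against DAC, EGR3 was called higher, by 1.18 (95% interval 0.52 to 1.84, limma adjusted p = 0.00779). That call was lost without any 1 of 9 libraries, with an adjusted p of up to 0.0571. In DAC and in DAC+ATRA libraries the EGR3 counts rested on 6 to 40 reads.

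EGR1, the best known factor of this family, read 223, 210.3 and 252 in untreated, 126, 135 and 76.2 with DAC, 597, 877 and 625 with ATRA and 164, 266 and 250.2 with DAC+ATRA. It thus overlapped untreated in the combination and stayed below every ATRA library. The difference from untreated was -0.04 (95% interval -0.49 to 0.41, limma adjusted p = 0.903) and that from ATRA was -1.63 (95% interval -2.08 to -1.18, limma adjusted p = 2.06e-05). NAB2, a corepressor that binds EGR proteins and is itself induced by them, read 124, 162 and 99.1 in untreated, 55.97, 58.02 and 42.5 with DAC, 367, 278 and 282 with ATRA and 40.6, 42.8 and 45.9 with DAC+ATRA. Its DAC+ATRA libraries overlapped DAC and differed from untreated by -1.53 (limma adjusted p = 7.38e-06).

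The EGR1 promoter is shown because serum response elements, the CArG boxes bound by serum response factor, are a known feature of this class. The 250 bases before the start of EGR1 (GRCh38.p14, chr5:138465229-138465478, plus strand, RefSeq, 5′ to 3′) held 2 CArG boxes, printed in capitals.
EGR1: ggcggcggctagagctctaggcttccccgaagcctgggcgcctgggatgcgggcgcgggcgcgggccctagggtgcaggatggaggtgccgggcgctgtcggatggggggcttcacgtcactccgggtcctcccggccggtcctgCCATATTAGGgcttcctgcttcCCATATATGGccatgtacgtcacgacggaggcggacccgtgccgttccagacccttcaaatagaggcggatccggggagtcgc
A CArG box on either strand within 250 bases before and 50 bases after the start was found in 2 of the 63 member promoters that the RefSeq table held (EGR1 and ALOX12, 3.17%), in 1.07% of 8541 promoters of tested genes and in 1.29% of all 27305 promoters. EGR3 and THBD were among the 24 genes without a promoter in the table.

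KLF6, a zinc finger factor of the Krüppel-like family, had group means of 122 ± 4.06 (SD, n = 3) in untreated, 67.5 ± 16.7 with DAC, 408 ± 65.2 with ATRA and 64.8 ± 7.02 with DAC+ATRA. KLF6 was at the DAC level in the combination and differed from untreated by -0.91 (limma adjusted p = 0.0008). TSC22D3, the glucocorticoid-induced leucine zipper protein, read 800.2, 709.6 and 758 in untreated, 281, 267 and 229.7 with DAC, 1184, 1638 and 1489 with ATRA and 224, 229.6 and 184 with DAC+ATRA. Every DAC+ATRA library of TSC22D3 was below every DAC library, but the difference from DAC was not called (-0.29, limma adjusted p = 0.126), whereas that from untreated was -1.83 (limma adjusted p = 3.08e-09).

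JUNB, a subunit of the AP-1 factor, read 3000.2 to 3031 in untreated, 1562 to 2127 with DAC, 4714 to 6289 with ATRA and 2350.3 to 2404 with DAC+ATRA. NFIL3, a basic leucine zipper repressor, read 1118 to 1277, 569.9 to 716, 1909 to 2444 and 944 to 1068 in the same order. In both genes the combination lay between DAC and untreated. Neither difference from untreated was called (-0.34, limma adjusted p = 0.0283 for JUNB and -0.25, limma adjusted p = 0.102 for NFIL3), and both were below ATRA, by -1.18 (limma adjusted p = 7.58e-07) and -1.06 (limma adjusted p = 3.14e-06). The JUNB difference from untreated was called without DAC replicate 3 (adjusted p = 0.00834) and in a fit of the compared groups only.

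CXCL8 (interleukin 8), a neutrophil chemoattractant, read 3272, 2548 and 2342 in untreated and 621, 794 and 1049 with DAC. ATRA raised it to 7884, 9548 and 7481, and DAC+ATRA gave 918, 669 and 636. The combination was within the range of DAC and 11.2-fold below ATRA by the group means. Its log2 difference was -1.88 (95% interval -2.25 to -1.51, limma adjusted p = 6.64e-08) from untreated and -0.13 (limma adjusted p = 0.606) from DAC.

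RASGEF1B, an exchange factor for Ras family proteins, was the lowest of the 87 genes in the combination. It read 14.8, 25.2 and 21.95 in untreated, 7.63, 12.5 and 6.53 with DAC, 163, 213 and 126 with ATRA and 1.40, 4.50 and 4.08 with DAC+ATRA. These last 3 libraries were below every other library, with a log2 difference of -2.38 (95% interval -3.19 to -1.57, limma adjusted p = 6.22e-05) from untreated. It rested on 1 to 4 reads per DAC+ATRA library and 6 to 8 per DAC library, and the difference from DAC was not called (-1.24, limma adjusted p = 0.0207).

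BTG2, an antiproliferative partner of the mRNA deadenylation machinery, read 2576, 2442 and 2285 in untreated, 804, 754 and 940.5 with DAC, 15552, 17986 and 12605 with ATRA and 1817, 1929 and 1784 with DAC+ATRA. Its combination libraries lay between DAC and untreated, -3.05 (limma adjusted p = 1.69e-12) from ATRA. The difference from untreated was -0.40 (limma adjusted p = 0.0124) and passed the threshold without DAC replicate 3, ATRA replicate 2 or ATRA replicate 3, with an adjusted p as low as 0.00348. It was also called with total-count scaling, with TMM factors, in a fit of the compared groups only, and by edgeR and DESeq2 on the recovered reads.

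**Figure D4:**
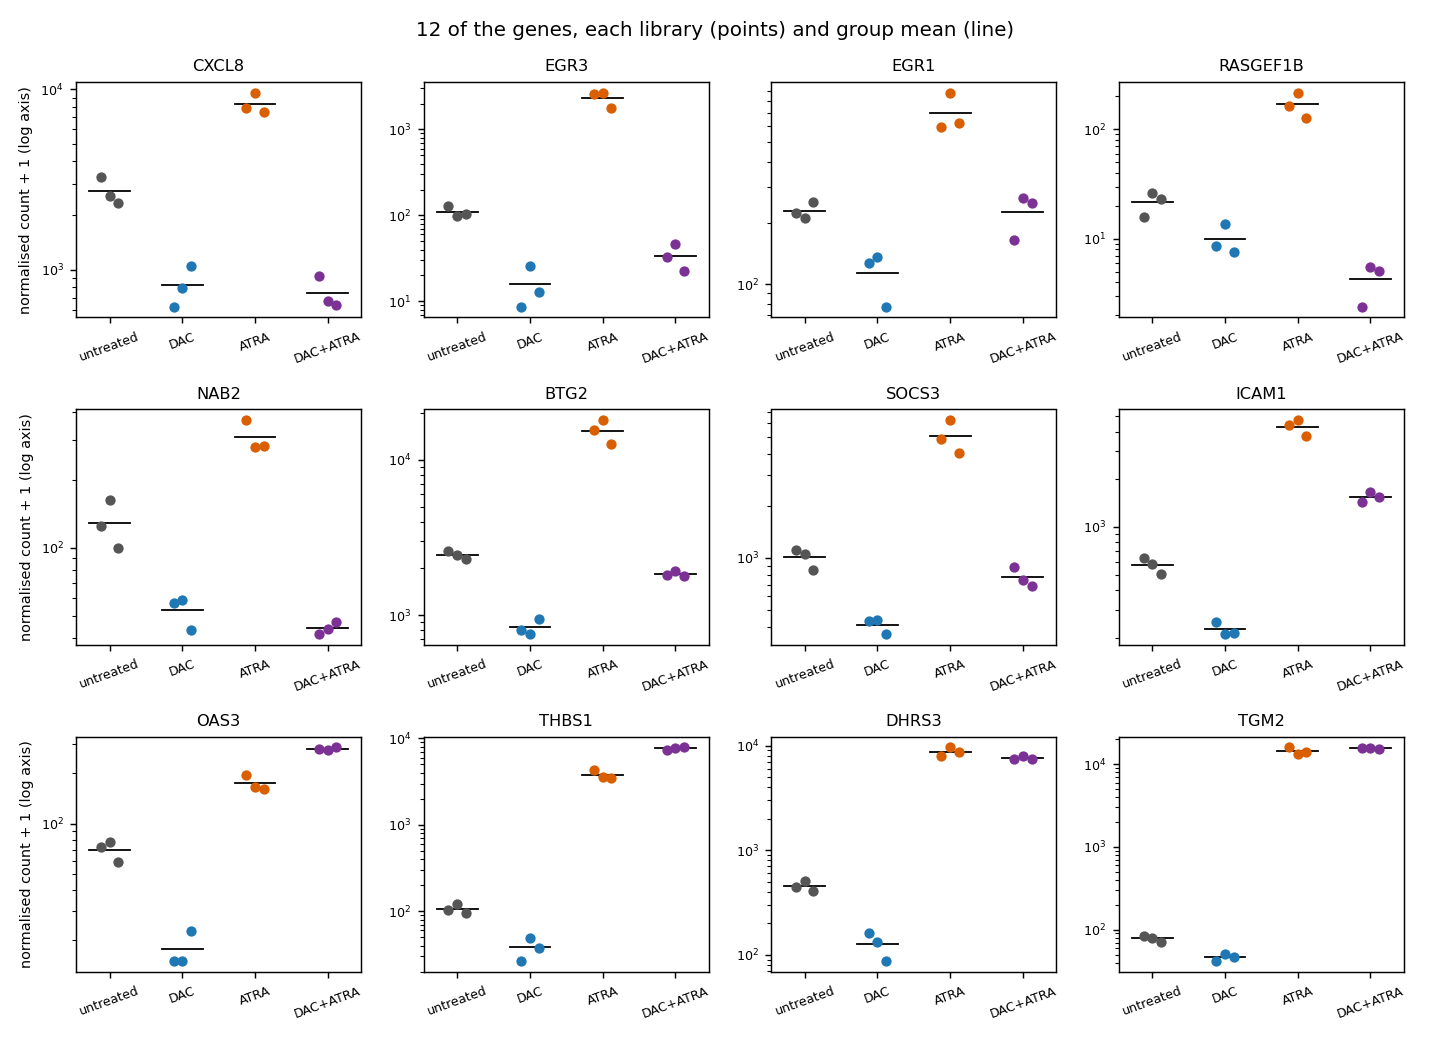
Normalised counts plus 1 (vertical log axis, a scale of its own in each panel) of 12 of the genes in the 4 groups, with 1 point per library and a line at the group mean. The purple DAC+ATRA points lie at or near the blue DAC points for CXCL8, EGR3, RASGEF1B and NAB2, near the grey untreated points for EGR1, BTG2 and SOCS3, and at or above the orange ATRA points for OAS3, THBS1 and TGM2.

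Signalling regulators settled on both sides of untreated. Of 6 signalling regulators among the genes, 5 were lower than in ATRA, 2 were lower than untreated (RASGEF1B and PMAIP1) and 3 were higher (PIM1, DUSP5 and DUSP7). In the whole list of 110 tested signalling regulators, 25 were lower than in ATRA, 28 lower than untreated and 29 higher. SOCS3, an inhibitor of cytokine receptor signalling, read 1109, 1058 and 851 in untreated, 429, 436 and 361 with DAC, 4861, 6268 and 4054 with ATRA and 885, 742 and 684 with DAC+ATRA. It overlapped untreated (-0.38, limma adjusted p = 0.048) and lay -2.70 (limma adjusted p = 2.53e-10) from ATRA.

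PIM1, a serine/threonine kinase downstream of JAK-STAT and FLT3 signals, kept its ATRA level. It read 9852, 11049 and 11856 in untreated, 7279, 6028 and 5760.3 with DAC, 17254, 18756 and 16721 with ATRA and 16253, 16480.3 and 17072 with DAC+ATRA, and the last overlapped ATRA. The difference was 0.61 (95% interval 0.38 to 0.84, limma adjusted p = 0.00017) from untreated and -0.08 (95% interval -0.31 to 0.15, limma adjusted p = 0.647) from ATRA. DUSP7, a phosphatase of ERK, read 504 to 694 in untreated, 1851 to 2381 with ATRA and 1174 to 1209 with DAC+ATRA, between the other groups. It was 1.03 (limma adjusted p = 4.55e-05) from untreated and -0.84 (limma adjusted p = 0.000965) from ATRA.

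DUSP5, a nuclear ERK phosphatase, stood 0.49 (limma adjusted p = 0.0098) from untreated. That call was lost without any 1 of 8 libraries (the 3 untreated, ATRA replicates 1 and 3 and the 3 DAC+ATRA libraries), with an adjusted p of up to 0.0567. PMAIP1, which encodes the apoptosis inducer NOXA, read 405 to 851 in untreated and 302 to 323 with DAC+ATRA, a change of -0.89 (limma adjusted p = 0.00472). That call was lost without untreated replicate 1, untreated replicate 2 or any of the 3 DAC+ATRA libraries, with an adjusted p of up to 0.0426.

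A list of 71 early response genes was compiled after the values of the 87 genes had been seen and is used for description only. It held 19 of the 87, of which 16 were lower than in ATRA, 7 were lower than untreated and 5 were higher. Among the 43 tested genes of the list outside the 87, 28 were lower than in ATRA and 2 higher, with a median difference from ATRA of -1.06 (-1.63 for the 19). Against untreated, 14 of these 43 were lower and 9 higher. Among all genes tested, 5.46% were called lower than in ATRA.

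Further genes of the 87 ended low. KLHL6, a substrate adaptor of a ubiquitin ligase, read 821 to 845 in untreated, 479.9 to 526 with DAC, 1099 to 1365 with ATRA and 417 to 513 with DAC+ATRA, -0.82 (limma adjusted p = 1.06e-05) from untreated. LIMD1, a LIM domain scaffold protein, stood -0.67 (limma adjusted p = 0.000884) from untreated and overlapped DAC as well. NEDD9, a scaffold of adhesion signalling, PPP1R15A, a subunit that directs dephosphorylation of the initiation factor eIF2, and CSRNP1 were called lower than untreated, at -0.81 (limma adjusted p = 0.000101), -0.73 (limma adjusted p = 6.13e-05) and -0.92 (limma adjusted p = 0.00339). PPP1R15A and CSRNP1 stand in the early response list, and the CSRNP1 call was lost without untreated replicate 1, untreated replicate 2 or DAC+ATRA replicate 1 (adjusted p up to 0.0275).

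OCSTAMP, a transmembrane protein of osteoclast fusion, was among the genes DAC lowered most, from 898 to 1048 in untreated to 134 to 256. It read 1462 to 1832 with ATRA and 559.9 to 686 with DAC+ATRA, between DAC and untreated. Its difference from DAC was 1.80 (limma adjusted p = 1.27e-07). The difference from untreated, -0.59 (limma adjusted p = 0.00979), was lost without any 1 of 10 libraries (all but DAC replicates 1 and 3), with an adjusted p of up to 0.0558.

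The retinoid response genes among the 87 kept 102% (TGM2), 95.2% (DHRS3), 83.0% (THBD), 49.1% (ICAM1) and -2.51% (EGR1) of their ATRA rise on the log2 scale. Of 5 such genes among the 87, 4 were higher than untreated (TGM2, DHRS3, THBD and ICAM1) and 5 were higher than DAC, while 3 were lower than ATRA (THBD, ICAM1 and EGR1). In the whole list, 22 of 36 tested genes were higher than untreated and 14 were lower than ATRA. TGM2, the tissue transglutaminase and a classical retinoid target, read 83.99, 77.9 and 70.9 in untreated and 40.7, 50.2 and 45.7 with DAC. It rose to 15975, 13182 and 13910.3 with ATRA and read 15475, 15789 and 15286 with DAC+ATRA. The last 2 groups overlapped, and their log2 difference was 0.12 (95% interval -0.12 to 0.35, limma adjusted p = 0.507).

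DHRS3, an enzyme that reduces retinaldehyde to retinol, was lowered by DAC from 447, 509.8 and 404 to 159, 130.2 and 85.99. With ATRA it read 7925, 9629.8 and 8728 and with DAC+ATRA 7385, 7897 and 7429. Although every DAC+ATRA library was below every ATRA library, the difference was not called, at -0.21 (95% interval -0.54 to 0.13, limma adjusted p = 0.403). DHRS3 stood 4.06 (limma adjusted p = 2.65e-13) from untreated.

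THBD, the anticoagulant receptor thrombomodulin, read 271 to 364 in untreated, 211 to 223 with DAC, 11008 to 14268 with ATRA and 6518 to 6721 with DAC+ATRA. THBD was -0.89 (95% interval -1.14 to -0.64, limma adjusted p = 2.36e-05) from ATRA. ICAM1, an adhesion molecule bound by leukocyte integrins and also a target of NF-kB, read 631, 584 and 507 in untreated, 251, 210.1 and 214 with DAC, 4387, 4715 and 3749 with ATRA and 1425, 1656 and 1533 with DAC+ATRA. ICAM1 lay between untreated and ATRA, at 1.42 (limma adjusted p = 1.76e-08) from untreated and -1.47 (limma adjusted p = 4.93e-08) from ATRA.

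Further genes with large ATRA rises stayed above every untreated library with both drugs. SLC2A5, a fructose transporter, read 1419 to 1577 in untreated, 682 to 799.8 with DAC, 58517 to 70552 with ATRA and 30705 to 31320.4 with DAC+ATRA. It was 4.37 (limma adjusted p = 1.26e-16) from untreated and -1.08 (limma adjusted p = 3.26e-07) from ATRA. CLIC3, of the chloride intracellular channel family, read 26.97 to 40.4 in untreated, 787 to 1356 with ATRA and 756 to 815 with DAC+ATRA, an overlap with ATRA (-0.46, limma adjusted p = 0.361).

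ALOX12, an arachidonate lipoxygenase, read 899 to 1250.2 in untreated, 359 to 447 with DAC, 8845 to 11439 with ATRA and 6400.1 to 6774 with DAC+ATRA. The difference from ATRA was -0.63 (limma adjusted p = 0.00187) and was lost without ATRA replicate 1, ATRA replicate 2 or DAC+ATRA replicate 3 (adjusted p up to 0.0121). GALM, a galactose mutarotase, RNF122, a ubiquitin ligase of the RING family, and CAVIN1, a coat protein of caveolae, kept 91.4%, 95.04% and 89.1% of their rise on the log2 scale. STS, the steroid sulfatase, kept 52.8% on that scale and was -2.04 (limma adjusted p = 3.77e-06) from ATRA, reading 24.1 to 32.5 in untreated, 447 to 676 with ATRA and 123.2 to 178 with DAC+ATRA.

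The list of interferon-stimulated genes held 4 of the 87 (OAS3, GBP3, RTP4 and APOBEC3G). In each of these 4 the DAC+ATRA mean was above the untreated mean. All 4 were called higher than DAC, 2 were higher than untreated (OAS3 and GBP3) and 0 were called different from ATRA, although at an unadjusted level of 0.05 the difference from ATRA passed for 3 of them. In the whole list of 90 tested genes, 50 were higher than DAC, 27 higher than untreated, 9 lower than untreated and 8 higher than ATRA. OAS3, which makes the oligoadenylate messenger that activates RNase L, read 71.5, 77.1 and 57.7 in untreated and 13.99, 14.1 and 21.8 with DAC. It read 195, 164 and 161 with ATRA and 279, 276 and 286 with DAC+ATRA, above every other library.

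The difference of OAS3 from untreated was 2.02 (95% interval 1.60 to 2.44, limma adjusted p = 1.56e-07). Its difference from ATRA was 0.69 (95% interval 0.27 to 1.11, limma adjusted p = 0.0182) and was called without DAC replicate 3 (adjusted p = 0.00391) and by edgeR and DESeq2 on the recovered reads. GBP3, an interferon-inducible GTPase, read 272 to 349.95 in untreated, 121 to 193 with DAC, 801 to 921 with ATRA and 613 to 636 with DAC+ATRA. It was 1.03 (limma adjusted p = 2.04e-05) from untreated and -0.47 (limma adjusted p = 0.0319) from ATRA. The latter passed without DAC replicate 1 or DAC replicate 3 (lowest adjusted p = 0.00765), and also in a fit of the compared groups only and by DESeq2.

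RTP4, an interferon-induced chaperone of receptors, read 131 to 218 in untreated, 69.000 to 119.7 with DAC, 221 to 345 with ATRA and 239.95 to 281 with DAC+ATRA. RTP4 overlapped ATRA in the combination and stood 0.59 (limma adjusted p = 0.0351) from untreated. APOBEC3G, a cytidine deaminase that restricts retroviruses, stood 0.37 (limma adjusted p = 0.111) from untreated and -0.68 (limma adjusted p = 0.0109) from ATRA. Its difference from ATRA passed the threshold without untreated replicate 3, DAC replicate 2 or DAC replicate 3, with an adjusted p as low as 0.00275. It also passed with TMM factors, a pseudocount of 5, a stricter filter, the compared groups only, edgeR and DESeq2.

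The promoters of RTP4 and OAS3 are shown because each held the core of the interferon-stimulated response element, which is GAAA, any 2 bases and GAAA again, on either strand and printed in capitals. The 250 bases before the start are given 5′ to 3′ (RefSeq, GRCh38.p14), from chr3:187368135-187368384 on the plus strand for RTP4 and from chr12:112938224-112938473 on the plus strand for OAS3.
RTP4: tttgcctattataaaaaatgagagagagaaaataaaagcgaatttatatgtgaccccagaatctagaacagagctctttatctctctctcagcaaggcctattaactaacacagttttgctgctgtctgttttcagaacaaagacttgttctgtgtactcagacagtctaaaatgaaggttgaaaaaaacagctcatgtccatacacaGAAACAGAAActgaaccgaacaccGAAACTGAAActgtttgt
OAS3: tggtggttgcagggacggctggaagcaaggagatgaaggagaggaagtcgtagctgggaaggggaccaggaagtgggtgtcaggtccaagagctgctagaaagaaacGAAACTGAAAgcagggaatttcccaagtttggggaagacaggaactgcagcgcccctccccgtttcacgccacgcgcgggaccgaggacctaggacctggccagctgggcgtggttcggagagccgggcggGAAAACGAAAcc
Each window held 2 cores. GBP3 held 1 just after its start, and APOBEC3G had no promoter in the table. Among the 63 member promoters these 3 genes were the ones with a core (4.76%), against 2.99% of promoters of tested genes and 3.65% of all promoters, so the share was near the background.

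THBS1 had the second largest DAC+ATRA change of the 87 genes, after TGM2. It encodes thrombospondin 1, a matrix glycoprotein that activates latent TGF-beta and inhibits angiogenesis. THBS1 read 103, 119 and 95.3 in untreated, 25.4, 48.6 and 37.01 with DAC, 4294, 3548 and 3527 with ATRA and 7321, 7733 and 7882 with DAC+ATRA. Its level in the combination was 2.02-fold above ATRA by the group means, with every library above every ATRA library, and differed by 1.02 (95% interval 0.66 to 1.37, limma adjusted p = 0.000237).

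HBEGF, a ligand of the EGF receptor, read 486, 445 and 472 in untreated, 252, 196 and 238 with DAC, 3025, 2919.97 and 2531 with ATRA and 3159, 3152 and 3189.8 with DAC+ATRA. Its combination libraries lay above every ATRA library, but the difference was small and not called, at 0.17 (95% interval -0.06 to 0.40, limma adjusted p = 0.315). CCL24, an eosinophil chemoattractant, read 25.7 to 40.4 in untreated, 7.62 to 10.2 with DAC, 228 to 295 with ATRA and 185 to 214 with DAC+ATRA. It differed by 2.66 (limma adjusted p = 1.22e-08) from untreated and by -0.32 (limma adjusted p = 0.332) from ATRA. With CXCL8, these made up the 3 cytokines and growth factors among the genes, of which 2 were higher and 1 lower than untreated, while the whole list had 9 higher and 12 lower of 35 tested.

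ANGPTL4, an inhibitor of lipoprotein lipase, read 10.9, 12.2 and 8.78 in untreated, 1.27, 1.57 and 2.18 with DAC, 276, 434 and 294 with ATRA and 22.4, 30.4 and 29.6 with DAC+ATRA. It thus lost most of a large ATRA rise and still ended above untreated. ANGPTL4 reached the rule's mean only through its ATRA libraries. Its means were 10.6 in untreated, 1.67 with DAC and 27.5 with DAC+ATRA, against 335 with ATRA. The ATRA values that admitted ANGPTL4 also enter its difference from ATRA, so that difference and its p-value are not independent of the rule. The DAC libraries held 1 to 2 reads and the DAC+ATRA libraries 16 to 29. The change was -3.54 (limma adjusted p = 9.98e-08) from ATRA and 1.29 (limma adjusted p = 0.0021) from untreated, the latter lost without untreated replicate 3, DAC+ATRA replicate 2 or DAC+ATRA replicate 3 (adjusted p up to 0.0119).

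The inhibitory Fc receptor FCGR2B and its near-identical paralog FCGR2C kept little of their ATRA rise. FCGR2B read 55.2, 67.4 and 57.1 in untreated, 34.3, 37.6 and 34.8 with DAC, 202, 316 and 281 with ATRA and 41.99, 73.2 and 103 with DAC+ATRA. FCGR2C read 172 to 199, 64.9 to 122, 692 to 1299 and 246 to 284 in the same order. Both were below ATRA (-1.92, limma adjusted p = 2.81e-05 and -1.93, limma adjusted p = 5.12e-06), and neither was called against untreated (0.19, limma adjusted p = 0.593 and 0.48, limma adjusted p = 0.101). How reads were split between these paralogs is uncertain. AL590385.2, a noncoding locus that also met the rule, overlaps FCGR2C on the same strand of chromosome 1, so the 3 are not independent.

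In metabolism, SLC16A3, the lactate exporter MCT4, read 728 to 968 in untreated, 325 to 645 with DAC, 1322 to 1636 with ATRA and 528 to 618 with DAC+ATRA. It was -1.36 (limma adjusted p = 2.44e-05) from ATRA and -0.59 (limma adjusted p = 0.0139) from untreated, the latter called without untreated replicate 1, DAC replicate 1 or DAC replicate 3 (lowest adjusted p = 0.000314). The SLC16A3 difference from untreated was also called in a fit of the compared groups only, and by edgeR and DESeq2 on the recovered reads. UPP1, uridine phosphorylase, read 29.5 to 45.1 in untreated and 35.7 to 67.5 with DAC+ATRA, which overlapped. Of the UPP1 group means, only that of ATRA (124) lay above the rule's limit for the mean. The difference of UPP1 from ATRA is therefore not independent of the rule. That difference, -1.36 (limma adjusted p = 0.00613), was lost without ATRA replicates 2 or 3 or DAC+ATRA replicates 1 or 3 (adjusted p up to 0.0446). With TGM2 these were the 3 metabolism and transport genes, against 22 of 81 tested genes of that list that were lower and 24 that were higher than untreated.

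Lists of antigen presentation genes and of cytokine and chemoattractant receptors held 0 of the 87. In these, 20 of 27 and 14 of 51 tested genes were higher than untreated with DAC+ATRA, and 2 and 4 were lower than ATRA. ICAM1 was the 1 member of the adhesion and migration list, where 9 of 45 tested genes were lower than ATRA. FCGR2B and FCGR2C were those of the myeloid surface and pattern receptors, with 12 of 63 lower than ATRA.

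Of the 14 genes outside the test, 12 are noncoding RNAs, IGKC is an immunoglobulin constant gene and ZBED6CL is listed as a pseudogene. A fit over all gene symbols gave values for them. AC020916.1 on chromosome 19, whose locus contains the miRNA genes MIR23A, MIR27A and MIR24-2, read 1298, 1268 and 1428 in untreated and 837, 825 and 499.6 with DAC. It read 2141, 3491 and 2499 with ATRA and 433, 396 and 414 with DAC+ATRA, below every DAC library. It differed by -1.68 (limma adjusted p = 4.33e-07) from untreated and by -0.76 (limma adjusted p = 0.00319) from DAC. The locus overlaps ZSWIM4 on the opposite strand, and the strand setting of the counting is not given in the sources used here.

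Among the other noncoding RNAs, Z98257.1 and LINC00996 kept most of their ATRA rise. Z98257.1 read 29.2 to 31.9 in untreated, 402 to 697 with ATRA and 364 to 441 with DAC+ATRA, and LINC00996 read 19.5 to 27.996, 439 to 549 and 306 to 382. LINC00920, AC108676.1 and AC026150.2 stood 0.53 (limma adjusted p = 0.18), 0.36 (limma adjusted p = 0.361) and 0.07 (limma adjusted p = 0.833) from untreated. IGKC, the kappa light chain constant region, read 292 to 405 in untreated and 359 to 469 with DAC+ATRA, an overlap, while the B cell marker CD79A reached at most 39.8 in any library.

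The interaction, which is the DAC change with ATRA minus the DAC change without it, asks whether DAC+ATRA departs from the sum of the single log2 changes. DAC+ATRA lay above that sum in 38 of the 87 genes and below it in 49, with a median departure of -0.13. It was called in 16 of the 73 tested genes, 7 positive and 9 negative, where 0.724% of all genes were called positive and 0.874% negative. Since the rule chose low DAC, high ATRA and untreated libraries that all enter the interaction, this count is not independent of it. Every one of the 9 genes with a negative call ended below the ATRA libraries, and 7 of them belong to the early response list compiled afterwards. That list held 19 of the 73 tested genes, and the 7 are given as a description only.

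The largest negative interaction was that of RASGEF1B, -4.20 (95% interval -5.34 to -3.06, limma adjusted p = 0.000123), followed by EGR3, -3.21 (95% interval -4.15 to -2.28, limma adjusted p = 0.000249). RASGEF1B reached the rule's mean of 50 (50.1) only through its ATRA libraries. Its means were 20.6 in untreated, 8.90 with DAC and 3.33 with DAC+ATRA, against 167 with ATRA. The ATRA values that admitted RASGEF1B also enter its interaction, so its rank and p-value are not independent of the rule. Negative interactions were also called for CXCL8 (-1.75, limma adjusted p = 0.000299), KLF6 (-1.75, limma adjusted p = 0.000627), NAB2 (-1.53, limma adjusted p = 0.00392), BTG2 (-1.50, limma adjusted p = 3.43e-05), SOCS3 (-1.41, limma adjusted p = 0.00048) and TSC22D3 (-1.20, limma adjusted p = 0.000901). The NAB2 call was lost without untreated replicates 1 or 3, DAC replicate 2, ATRA replicate 1 or DAC+ATRA replicates 1 or 2 (adjusted p up to 0.0161).

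The largest positive interactions were those of OAS3, 2.69 (95% interval 2.10 to 3.29, limma adjusted p = 1.21e-05), and THBS1, 2.55 (95% interval 2.05 to 3.05, limma adjusted p = 3.45e-06). DHRS3 followed with 1.68 (limma adjusted p = 0.000185) and HBEGF with 1.20 (limma adjusted p = 0.000137). In these 4 genes, which DAC alone lowered by rule, DAC+ATRA was not called lower than ATRA. ALOX12 (0.88, limma adjusted p = 0.00897), TGM2 (0.87, limma adjusted p = 0.00263) and NMUR1, a receptor of neuromedin U (0.83, limma adjusted p = 0.00856), had smaller values. ALOX12 lost its call without any 1 of 8 libraries (all but untreated replicate 3, DAC replicates 1 and 3 and ATRA replicate 1), TGM2 without any 1 of 6 (untreated replicate 2, ATRA replicates 2 and 3 and the 3 DAC+ATRA libraries) and NMUR1 without any 1 of 10 (all but DAC replicate 3 and ATRA replicate 2). Their adjusted p then reached 0.0396, 0.014 and 0.038. The count of 7 positive calls dropped to 4 without untreated replicate 2, ATRA replicate 3 or any of the 3 DAC+ATRA libraries.

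**Figure D5:**
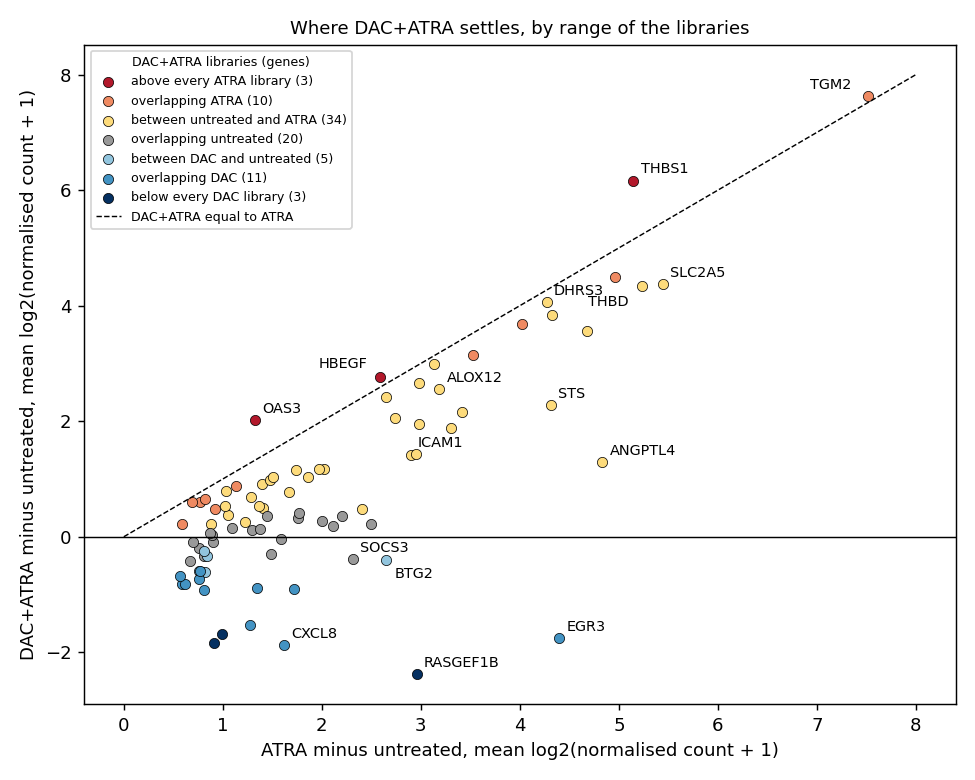
Each point is 1 of 86 genes of the set, with ATRA minus untreated on the horizontal axis and DAC+ATRA minus untreated on the vertical axis, both as differences of mean log2(normalised count + 1), coloured by where the DAC+ATRA libraries lay. Points on the dashed line kept their whole ATRA rise, as TGM2 did at 7.51 and 7.63, and points under the solid line at 0 ended below untreated, as EGR3 did at -1.76 after an ATRA change of 4.40.

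The members were spread over 21 chromosomes. MYBPH and BTG2 lie 129665 bases apart on chromosome 1 and settled differently, MYBPH at 1.16 (limma adjusted p = 2.14e-05) and BTG2 at -0.40 (limma adjusted p = 0.0124) from untreated. THBS1 and BMF lie 488424 bases apart on chromosome 15 and did so too, BMF, a proapoptotic BCL2 family gene, standing -0.33 (limma adjusted p = 0.325) from untreated. The 63 promoters had a median GC content of 69.3%, against 65.0% for promoters of tested genes and 58.3% for all. The median ratio of observed to expected CpG was 0.754, 0.848 and 0.580. The CpG ratio was 0.741 in the 35 promoters of genes whose combination lay above every untreated library and 0.781 in the 28 others. Other motifs were searched in the 63 promoters on either strand, without a test. A retinoic acid response element was found in 1 (MACROH2A1, 1.59%), against 0.281% of promoters of tested genes. AP-1 sites were found in 9.52% against 4.36%, and EGR sites in 4.76% against 1.26%. Cyclic AMP response elements were found in 1.59% against 3.34%, and NF-kB sites in 12.7% against 12.9%. These shares rest on 1 to 8 promoters each.

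The rule's limits cut through a continuous range. Just inside the 1.5-fold limit for DAC were MACROH2A1 (1.51), Z98257.1 (1.51) and AC026150.2 (1.51), and just outside were CD300A (1.49), ZNF627 (1.49) and CCR1 (1.47). For ATRA, KLHL6 (1.505), LIMD1 (1.52) and HELZ2 (1.52) were inside and MBNL1-AS1 (1.498), HOXA6 (1.48) and TRIM56 (1.48) outside, all as fold changes of group means. For the mean over 12 libraries, RASGEF1B (50.1), LINC00920 (51.8) and AC108676.1 (52.3) were inside and CD1A (49.7), AC040977.1 (47.8) and HESX1 (47.6) outside. Among the genes just inside, MACROH2A1, a histone variant, read 638 to 805 in untreated and 824 to 852 with DAC+ATRA. HELZ2, a nuclear receptor coactivator, read 299 to 398 and 399 to 458. Of 87 genes, 47 had 1 transcript row. In the 25 with 2 or more rows of a mean of at least 10, the order DAC below untreated below ATRA held in 58 of 59 rows.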

How the data were processed

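The authors depleted ribosomal RNA from total RNA, prepared libraries that keep the strand, and used STAR with hg38 for alignment and htseq-count for counting. The deposited matrix holds 100502 transcript rows and 12 columns of a signal that the authors made by dividing read counts by 1 size factor per library. Dividing each value by the value of 1 read gave whole numbers in 100% of cases (tolerance 0.01 reads), so reads could be recovered. Columns named CTRL were taken as untreated. Rows were summed per gene symbol, and 88.9% of rows matched GENCODE release 44, which gave biotypes and positions. The plan named edgeR as the main test if the values turned out to be whole counts. Although reads could be recovered, the deposited values are normalised, and edgeR was kept as an alternative. The main test was limma 3.58.1 (R 4.3.3, lmFit and a trended eBayes), run on log2(normalised count + 1). This scale understates changes of low genes. All 12 libraries entered 1 fit without covariates, over 10641 protein-coding genes that reached 10 normalised counts in 3 or more libraries, with Benjamini-Hochberg adjustment and a threshold of 0.01. The result of 1 gene of the set is not reported here, although counts over the set include it. The code was tested on simulated data. The members, lists and tests were chosen with earlier results of these data known, and the list of early response genes after the members' values were seen. Genes were named when they stood in a list, were among the 6 highest or 6 lowest DAC+ATRA changes, the 4 largest ATRA or DAC changes or the 4 highest means, lay nearest to a limit of the rule, or had a called interaction. CSRNP1, NEDD9, PPP1R15A, GALM, RNF122, CAVIN1, STS, LINC00996, IGKC, AL590385.2, MYBPH, BMF and the genes of the last section were added after their values were seen. Alternatives were edgeR 4.0.16 and DESeq2 1.42.0 on recovered reads, total-count and TMM scaling, pseudocounts of 0.1 and 5, other filters and limits, all gene symbols, a replicate block, fits of the compared groups only, and leaving out each library.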

Additional observations from a re-analysis of the deposited data

Results flagged for a closer look

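In the 15 genes given here the DAC effect differed between cells with and without ATRA by the test of that difference (limma interaction, adjusted p under 0.01), which brought them here. All of these genes had been chosen for low DAC and high ATRA libraries, which enter the same difference. The interaction on the log2 scale was 2.69 for OAS3, 2.55 for THBS1, 1.68 for DHRS3, 1.20 for HBEGF, 0.88 for ALOX12, 0.87 for TGM2 and 0.83 for NMUR1, all positive. It was -4.20 for RASGEF1B, -3.21 for EGR3, -1.75 for CXCL8, -1.75 for KLF6, -1.53 for NAB2, -1.50 for BTG2, -1.41 for SOCS3 and -1.20 for TSC22D3, all negative. All 3 DAC+ATRA libraries lay below all 3 ATRA libraries in each of these 8 negative genes, and in DHRS3, ALOX12 and NMUR1 among the positive ones. With 3 libraries per group, single libraries were not examined for lying apart.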

How the results depend on the processing

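No count or median over the set changed direction, nor did any single-gene difference with an adjusted p under 0.01 in the reported fit or in the alternative. Differences that were not called crossed 0 in 36 settings of 15 comparisons. When single libraries were left out, the DAC+ATRA difference from untreated ranged from -0.17 to 0.18 for EGR1, -0.10 to 0.53 for FCGR2B, -0.055 to 0.089 for JARID2 and -0.0081 to 0.24 for ARTN. The difference from DAC ranged from -0.32 to 0.059 for CXCL8, -0.24 to 0.12 for KLF6, -0.15 to 0.00045 for KLHL6, -0.026 to 0.47 for SLC16A3, -0.037 to 0.35 for CSRNP1 and -0.13 to 0.036 for NEDD9. The interaction ranged from -0.15 to 0.015 for MACROH2A1, -0.46 to 0.15 for UPP1, -0.10 to 0.13 for DUSP5, -0.14 to 0.22 for DUSP7 and -0.016 to 0.29 for FAM20C. That of DUSP5 (0.015) was also -0.0094 with TMM factors, -0.029 with edgeR and -0.0067 with DESeq2. The numbers of genes higher (33) and lower (13) than untreated, lower than ATRA (51) and higher than DAC (53) ranged from 29 to 34, 10 to 17, 44 to 55 and 51 to 53 when single libraries were left out. Positive interactions (7) ranged from 4 to 10, being 4 without untreated replicate 2, ATRA replicate 3 or any DAC+ATRA library, and negative ones (9) from 8 to 10. The median log2 change against untreated (0.48) ranged from 0.39 to 0.52. The rule gave 83 to 110 genes in place of 87 without single libraries, 27 at a limit of 2-fold, 188 at a looser fold limit and 132 at a mean of at least 10. At an adjusted p under 0.05, 20 genes were lower than untreated and 12 had a positive interaction, and DESeq2 called 11 positive interactions. On the recovered reads, edgeR called 33 of the genes higher and 15 lower than untreated, 54 lower than ATRA, 53 higher than DAC, and 8 positive and 9 negative interactions. The causes were not tested, apart from the wider or narrower limits themselves. Counts under all other alternatives stayed within 1.5 times those reported. For single named genes, calls were lost in 39 and gained in 19 settings against untreated, in 15 and 21 against ATRA, in 15 and 6 against DAC, and in 35 and 22 for the interaction.

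Replicate numbers did not pair the libraries: deviations from the group means of same-numbered libraries correlated between -0.263 and 0.114 over 18 pairs, and 2 pairs were over 0.1. A replicate block gave 31 genes higher and 13 lower than untreated, 51 lower than ATRA, 54 higher than DAC, 7 positive and 9 negative interactions and a median change of 0.48. The scaling moved the median of all genes by less than 0.1 (log2). Genes with few reads, such as RASGEF1B with 1 to 4 reads in the combination, are limited by depth.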

Other observations

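Further transcription and chromatin regulators among the 87 genes, chosen here after their values were seen, lay on both sides. HMX3, a homeobox factor, had group means of 637, 409, 2509 and 1432 normalised counts in untreated, DAC, ATRA and DAC+ATRA, and its DAC+ATRA change was 1.17 (limma adjusted p = 2.11e-08) against untreated. NFATC1, a calcineurin-dependent factor, had means of 36.7, 14.5, 211 and 43.8 in the same order and a change of 0.22 (limma adjusted p = 0.557), not called. JARID2, a partner of the Polycomb repressive complex, had means of 625, 405, 1154 and 636 and a change of 0.03 (limma adjusted p = 0.899), not called. NFATC1 and JARID2 were both lower than in ATRA, with differences of -2.28 (limma adjusted p = 5.96e-06) and -0.86 (limma adjusted p = 0.000269). Of the NFATC1 group means, only that of ATRA lay above the rule's limit for the mean. The difference of NFATC1 from ATRA is therefore not independent of the rule.

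Among membrane and secreted proteins, FCMR, the Fc receptor for IgM, had means of 43.6, 24.0, 439 and 165 and a change of 1.89 (limma adjusted p = 5.85e-06). ATP10A, a phospholipid flippase, had means of 52.4, 14.4, 416 and 140.4 and a change of 1.43 (limma adjusted p = 0.000142). ARTN, a neurotrophic ligand of the GDNF family, had means of 119.6, 31.2, 293 and 130.03 and a change of 0.12 (limma adjusted p = 0.712), so that the combination overlapped untreated while the single drugs moved it by -1.95 and 1.29 on the log2 scale. FAM20C, a Golgi kinase of secreted proteins, kept 75.3% of its ATRA rise and JCAD, a junctional protein, 76.4%.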
